A study of Mus musculus with 6 samples.

Results

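To learn which messages METTL3 binds in natural killer (NK) cells, the study precipitated METTL3 from NK cell lysate and sequenced the RNA that came with it (METTL3-RIP), beside RNA of the lysate itself (input). The cells were splenic NK cells of wild-type C57BL/6 mice in both groups, with 3 METTL3-RIP and 3 input libraries, and the labels do not say whether the 3 libraries of a group came from separate mice, so that p-values measure the spread between these libraries, which may be technical. By the study's methods, the mice had received an IL-15 expression plasmid (pLIVE-IL-15) by hydrodynamic injection 1 month earlier to expand NK cells, so these were IL-15-exposed cells and there was no group without IL-15. Here the zinc finger genes of the deposited table were taken, defined as every gene whose symbol is Zfp, Zbtb, Zkscan, Zscan, Zfhx, Znf or Zc3h followed by a number. The rule found 79 of the 2652 genes in the table (2.98%), of which 49 were Zfp, 18 Zbtb, 4 Zc3h, 3 Zfhx, 3 Zscan and 2 Zkscan genes, and no Znf gene. The members were protein-coding in 77 cases, and the other 2 were the pseudogene Zfp783 and the antisense gene Zfhx2os.

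Most of these genes encode proteins that grip DNA with C2H2 zinc fingers, small folds in which a pair of cysteines and a pair of histidines hold a zinc ion, strung together by short and highly conserved linkers. Many Zfp proteins carry a KRAB domain, which brings in TRIM28 and the histone methyltransferase SETDB1 and silences transposable elements. Zbtb proteins pair through a BTB domain, recruit histone deacetylase complexes, and include several lineage-determining factors of lymphocytes, while Zc3h proteins hold CCCH fingers and bind RNA. METTL3 catalyses the writing of N6-methyladenosine (m6A) into RNA, as part of a larger complex, preferentially at an A within GGAC and often in long exons and near stop codons.

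The table lists genes that the authors selected as higher in METTL3-RIP, so the direction of every difference was fixed by that choice, and genes outside the table, whether unbound or simply not expressed in NK cells, had no values here. No library made with a control antibody was analysed here, so binding to the beads or antibody was not tested. Of 10 NK cell markers and 17 markers of T cells, B cells, myeloid cells and red cells, 0 were in the table, so the labelled cell type could not be checked against it. In bulk RNA, more cells that hold a message and more copies per cell cannot be told apart. The depth recovered from the values was 9401509 to 11809744 reads a library for METTL3-RIP and 14710607 to 15992386 reads for input.

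The levels carry no stated unit and were inferred to be RPKM, the reads of a gene per kilobase of its exons and per megaread of the library. On that reading they can be compared between genes, with less certainty where exons overlap other genes or repeat elsewhere. The 79 zinc finger genes together held 0.252% ± 0.0173 (SD, n = 3) of METTL3-RIP reads against 0.0193% ± 0.00259 (SD, n = 3) of input reads. Of the reads on listed genes they made up 1.91% ± 0.0218 (SD, n = 3) in input and 1.66% ± 0.0136 (SD, n = 3) in METTL3-RIP, and every METTL3-RIP library lay below every input library. The median level over the members was 2.71 ± 0.137 RPKM (SD, n = 3) in METTL3-RIP and 0.201 ± 0.0303 RPKM (SD, n = 3) in input. The other listed genes had medians of 3.04 RPKM and 0.186 RPKM. Reads were scarce in input, where the median member had 25, 24 and 16 reads in replicates 1, 2 and 3. The METTL3-RIP libraries held 162, 196 and 214 reads of the median member. Input replicate 1 lacked reads of 7 members, replicate 2 of 5 and replicate 3 of 9, and no member had 0 reads in a METTL3-RIP library. Among members with reads whose annotated length gave whole reads (56 to 60 in an input library and 64 in a METTL3-RIP library), read numbers were even for 77.2% to 83.9% in input and for 53.1% to 56.3% in METTL3-RIP, and whether both reads of a pair were counted was not tested.

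All 79 zinc finger genes passed the test and were higher in METTL3-RIP (limma on log2(RPKM + 1), Benjamini-Hochberg adjusted p below 0.05 over the whole table), as 99.9% of listed genes did. With limma voom on the recovered reads all 79 passed too, as 100% of listed genes did. The 3 METTL3-RIP values lay above the 3 input values in all 79 members, against 99.8% of listed genes. Both counts follow from how the table was made. The log2 fold change ran from 0.17 to 3.21 over the members, with a median of 1.61, beside a median of 1.73 over the other listed genes, and these median differences keep their sign in all settings tried except centring each library on the listed genes, which puts 42 members lower and 37 higher. On the log2(RPKM + 1) scale a low gene cannot reach a high fold change, and across the 79 members the log2 fold change followed the METTL3-RIP level almost exactly (Spearman's rho 0.99 across genes, which share their libraries). It was at least 1 in 59 members and below 1 in 20.

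**Figure D1:**
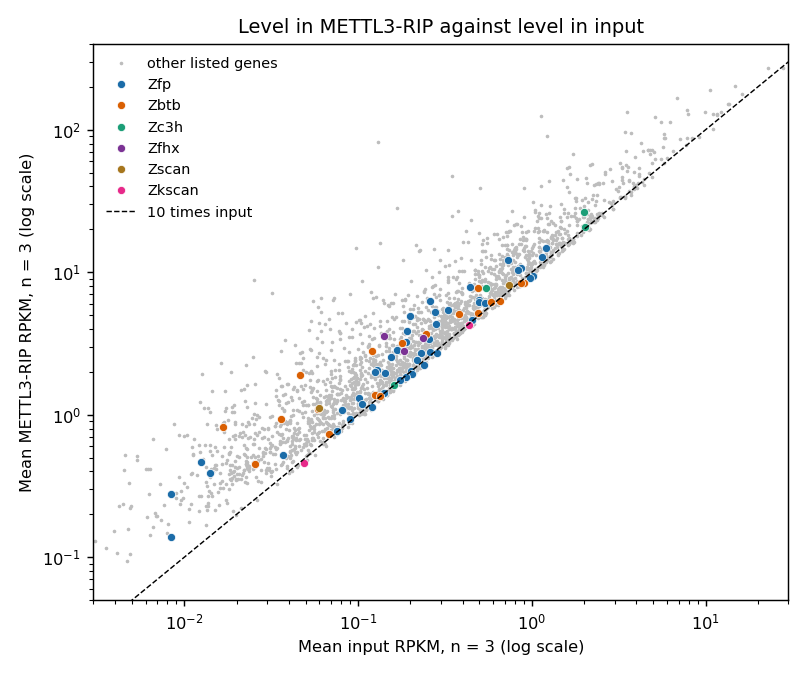
Mean METTL3-RIP RPKM (vertical, log scale) against mean input RPKM (horizontal, log scale), n = 3 each, for listed genes in grey and zinc finger genes coloured by name family. The dashed line marks 10 times the input level, and genes at 0 in all input libraries, among them 3 members, cannot be drawn; the members lie along the lower edge and middle of the grey cloud.

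The plot of METTL3-RIP level against input level shows the members spread over more than 2 powers of 10 on both axes. In METTL3-RIP, 7 members had a mean of at least 10 RPKM, 57 lay from 1 to 10 RPKM and 15 lay below 1 RPKM. In input, 63 had a mean below 0.5 RPKM and 5 reached 1 RPKM. Libraries of a group differed by a median coefficient of variation of 15.1% in METTL3-RIP and 31.6% in input.

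The RNA-binding CCCH genes included the 2 highest members, while the other 2 of the table lay at ranks 15 and 55 of 79. Zc3h4, which restrains the transcription of unstable noncoding RNA, had the highest METTL3-RIP level of all members, at 26.6, 28.0 and 24.7 RPKM in replicates 1, 2 and 3, against 2.18, 2.34 and 1.45 RPKM in input. Its log2 fold change of 3.21 (SE 0.14, limma adjusted p = 1.84e-07) was also the largest, on a scale that follows the level. Zc3h11a, linked to export of polyadenylated mRNA, came next with 22.3, 21 and 18.6 RPKM against 2.29, 1.87 and 1.90 RPKM. The groups of both genes were far apart, with the lowest METTL3-RIP library several times above the highest input library. The METTL3-RIP mean was 13.3 times the input mean in Zc3h4 and 10.2 times in Zc3h11a. Over members with at least 50 input reads, the median was 12.3 times. The Zc3h11a values are uncertain, since 75% of its exonic sequence overlaps other genes on the same strand, Zbed6 and a second Zc3h11a entry among them.

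Zc3h12a encodes Regnase-1, an endoribonuclease that degrades messages of inflammatory genes. It had 7.79, 8.30 and 7.05 RPKM in METTL3-RIP against 0.592, 0.608 and 0.425 RPKM in input, with a log2 fold change of 2.5 (SE 0.10). Zc3h3, which acts in polyadenylation and export of mRNA, was low and uneven, at 1.77, 2.23 and 0.832 RPKM against 0.117, 0.186 and 0.182 RPKM. Replicate 3 held less than the other METTL3-RIP libraries and still exceeded every input library. In this gene 91.3% of exonic 31-mers (runs of 31 bases) occur elsewhere on the chromosomes, so its reads cannot be placed with certainty. Of 20 CCCH genes in a list of RNA-binding zinc finger genes, 4 were in the table. Like 99.9% of genes in the table, all 4 passed the test. Levels of the other 16 were not known.

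The list of zinc finger regulators of lymphocytes had 10 of 22 genes in the table, with a median log2 fold change of 2.05. Like 99.9% of genes in the table, all 10 passed the test. Zfp335, needed for T cell maturation, led this group with 13.1, 13.3 and 10.3 RPKM in METTL3-RIP and 0.762, 0.896 and 0.545 RPKM in input. The log2 fold change was 2.93 (SE 0.13). Its exons overlap genes on the opposite strand (Pcif1 and Zfp335os) over 28.3% of their length, and whether the counting used strand is not given in the sources used here.

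Zbtb38, a reader of methylated DNA, had 8.27, 8.79 and 8.08 RPKM in METTL3-RIP against 0.957, 0.821 and 0.811 RPKM in input, among the tightest triplicates of the group. Zbtb7b encodes ThPOK, the factor that commits thymocytes to the CD4 lineage, and measured 5.25, 7.65 and 5.86 RPKM against 0.810, 0.582 and 0.584 RPKM. Zbtb17 encodes MIZ-1, a partner of MYC that also supports IL-7 signalling in lymphoid progenitors, and measured 5.38, 7.89 and 5.15 RPKM against 0.711, 0.516 and 0.526 RPKM. METTL3-RIP replicate 2 was the highest library in both, as in 9 of the 10 listed genes of this group. Zfp831 had 4.31, 6.08 and 5.35 RPKM against 0.181, 0.357 and 0.291 RPKM.

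Zbtb16 encodes PLZF, which directs innate-like lymphocytes. It was found at 3.0, 3.86 and 2.68 RPKM in METTL3-RIP and at 0.174, 0.225 and 0.142 RPKM in input, where it rested on 44 reads in the 3 libraries together. Zbtb20, a repressor used by plasma cells among others, had 2.69, 2.71 and 3.03 RPKM against 0.122, 0.130 and 0.111 RPKM. Zfhx3, a very large protein with zinc fingers and homeodomains, had 3.45, 4.22 and 2.97 RPKM against 0.112, 0.128 and 0.186 RPKM. Zbtb16, Zbtb20 and Zfhx3 had input means below 0.5 RPKM, as 63 of the 79 members did. Their groups did not overlap, as in 99.8% of genes in the table. Zbtb18, best known as a repressor in neurons, and Zbtb46, a marker of classical dendritic cells, were the lowest of the list. Zbtb18 measured 1.42, 1.66 and 0.993 RPKM against 0.150, 0.163 and 0.0886 RPKM. Zbtb46 measured 0.400, 0.648 and 0.299 RPKM against 0.0618, 0.0147 and 0 RPKM. Log2 fold changes were 1.05 (SE 0.11) and 0.49 (SE 0.09), both past the threshold. The other 12 genes of the list, Zbtb1, Zbtb7a, Zbtb32 and Zfp683 among them, were not in the table.

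**Figure D2:**
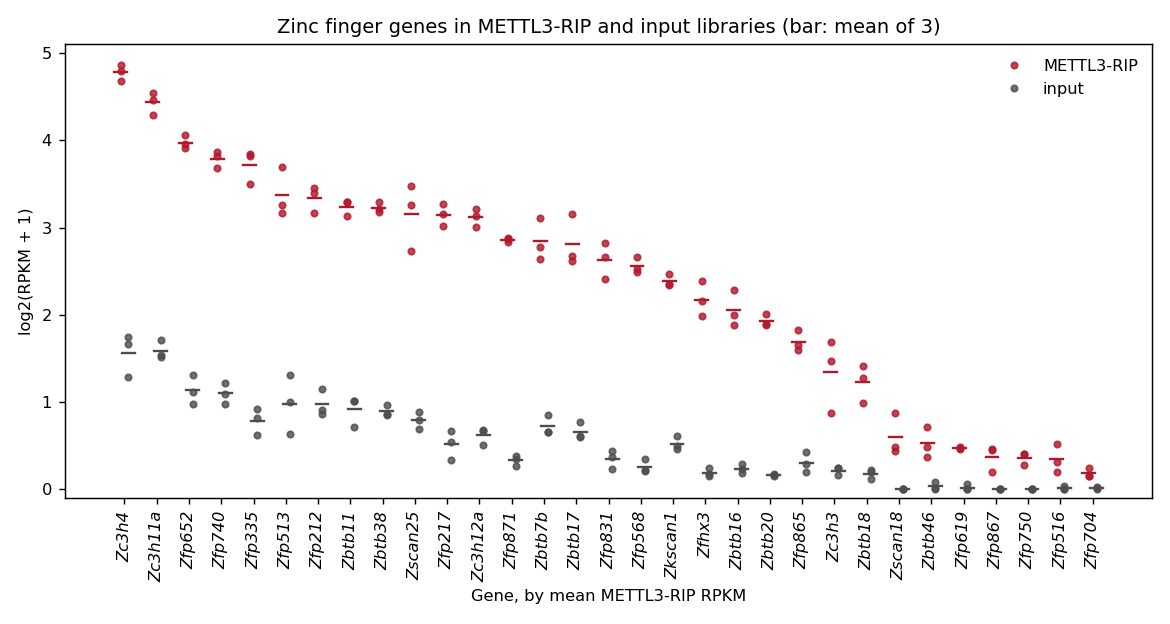
The log2(RPKM + 1) of 31 named zinc finger genes in each of the 3 METTL3-RIP (red) and 3 input (grey) libraries, with bars at the group means and genes ordered by mean METTL3-RIP RPKM. In every gene the red points lie above the grey points, and the distance shrinks toward the low genes on the right.

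Zfp217 binds METTL3 and restrains m6A deposition in embryonic stem cells. Its own message had 8.65, 7.91 and 7.08 RPKM in METTL3-RIP against 0.460, 0.591 and 0.266 RPKM in input, with a log2 fold change of 2.63 (SE 0.12, limma adjusted p = 1.91e-07). The METTL3-RIP libraries held 18 times the mean input level, above the upper quartile of the members. Zc3h13, a subunit of the m6A writer complex, was not in the table.

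Among the remaining Zfp genes, Zfp652, a transcriptional repressor, had 14.5, 15.6 and 14 RPKM against 1.48, 0.976 and 1.17 RPKM. Zfp740 had 13.1, 13.5 and 11.9 RPKM against 1.33, 1.14 and 0.973 RPKM. Both were in the top 5 members by level and by log2 fold change, at 2.83 (SE 0.12) and 2.69 (SE 0.11). The highest members of the other families were Zbtb11, with a mean of 8.46 ± 0.597 RPKM (SD, n = 3), Zscan25 with 8.10 ± 2.25 RPKM, Zkscan1 with 4.23 ± 0.260 RPKM and Zfhx3. Zscan25 varied most among them, from 5.67 to 10.1 RPKM.

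At the other end stood genes almost without input reads. Zscan18 had 0.399, 0.830 and 0.358 RPKM in METTL3-RIP and 0 reads in all 3 input libraries. Zfp867 had 0.374, 0.366 and 0.149 RPKM, and Zfp750, a factor of epidermal differentiation, had 0.329, 0.322 and 0.210 RPKM, likewise over 0 input reads. Against a floor of 3 reads per input library, averaged over the 3 libraries, they were at least 11.5-fold, 5.15-fold and 4.73-fold higher in METTL3-RIP. These bounds cover counting error only. Zfp619, with 4 input reads in all, and Zfp516 and Zfp704, with 3 and 6, completed the low end. Their log2 fold changes were 0.46 (SE 0.05), 0.33 (SE 0.08) and 0.17 (SE 0.04), and Zfp704 had the largest adjusted p of all members (limma, 0.00522).

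Since the log2(RPKM + 1) scale follows the level, recovery was also described by the ratio of the METTL3-RIP mean to the input mean, without a pseudocount, in the 47 members with at least 50 input reads over the 3 libraries. This ratio ran from 9.31 to 25, with a median of 12.3 and quartiles of 10.2 and 15.3. The 1191 other listed genes with as many input reads had a median of 12.2 and quartiles of 10.4 and 15.8, but reached 333. The medians thus lay close together, and the far larger set of other genes reached higher. The lowest member lay near the lowest of the other genes (9.15), where the selection of the table stops. The ratio was below 10 in 9 members, from 10 to 15 in 24, from 15 to 20 in 9 and at least 20 in 5.

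**Figure D3:**
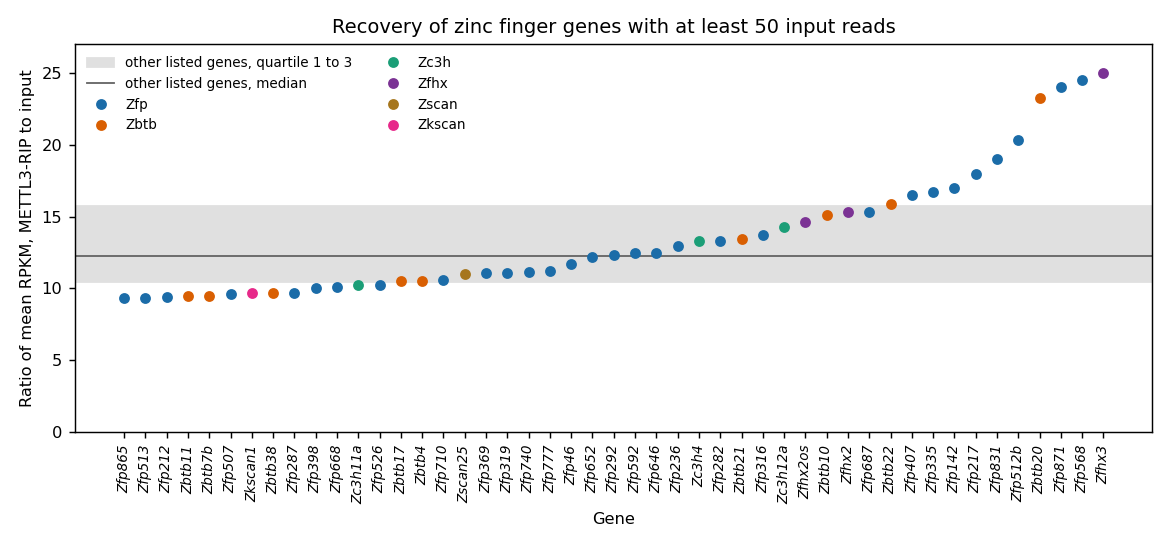
Ratio of mean METTL3-RIP RPKM to mean input RPKM (vertical, no pseudocount) in the 47 zinc finger genes with at least 50 input reads, ordered by ratio and coloured by name family. The grey band spans the quartiles of the other listed genes (10.4 to 15.8) with their median as a line, and 5 members stand at or above 20.

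Zfhx3 had the highest of these ratios, at 25. Zfp568, a KRAB protein that silences a placental transcript of Igf2, followed with 24.5, from 5.31, 4.63 and 4.74 RPKM against 0.161, 0.272 and 0.166 RPKM. Zfp871, another KRAB gene, had 24.0, from 6.13, 6.35 and 6.30 RPKM against 0.269, 0.209 and 0.303 RPKM. Zbtb20 and Zfp512b were the other 2 members at 20 or more. The 3 lowest were Zfp865 (9.31), Zfp513 (9.33) and Zfp212 (9.41). Zfp513 had wide input triplicates, 1.49, 1.01 and 0.549 RPKM, against 8.55, 11.9 and 7.97 RPKM in METTL3-RIP. Zfp212 had 9.53, 9.91 and 7.98 RPKM against 1.23, 0.875 and 0.815 RPKM, and Zfp865 had 2.02, 2.56 and 2.14 RPKM against 0.220, 0.349 and 0.152 RPKM. Thus genes of equal METTL3-RIP level differed in recovery, as Zfp871 and Zbtb7b show at 6.26 and 6.25 RPKM with ratios of 24.0 and 9.49.

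Within the range of ratios kept by the table, nothing measured on the genes themselves tracked this ratio closely. Across the 47 members, Spearman's rho of the ratio with the METTL3-RIP level was 0.0015 and with exon length 0.22. Across the 46 coding members among them it was 0.057 with the number of C2H2 fingers, -0.14 with GGACT per kilobase and 0.041 with the G or C share at the third codon position. These are descriptions across genes of the same 6 libraries, and genes are not replicates. The selection of the table also cuts the ratio at its low end, and how far this lowers the correlations was not tested.

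The share of zinc finger genes that entered the table differed between families. Of 485 coding genes annotated under these names (GENCODE M21, GRCm38), 77 were in the table (15.9%), against 8.50% of 21381 other coding genes. Coding genes with other names and at least 1 C2H2 finger by sequence pattern had a share near that of the members, 46 of 348 (13.2%). By family, the share was 43.9% of 41 Zbtb genes, 23.5% of 17 Zc3h genes, 18.2% of 11 Zkscan genes, 15.8% of 19 Zscan genes and 12.2% of 394 Zfp genes, and 2 of 3 Zfhx genes were listed. Expression in NK cells, read number, reads that can be placed and a difference may each bear on listing. They cannot be told apart for genes outside the table. Input reads were not required, as 3 members had 0 in all input libraries. Long genes give more reads, and the median exon length was 6778 nt over the members and 3500 nt over all coding genes. The families were therefore set side by side within 5 classes of exon length that each hold a like number of coding genes. In the longest class, from 6531 nt up, 9 of 16 Zbtb genes (56.3%), 26 of 95 Zfp genes (27.4%) and 23.2% of other coding genes were listed. In the next class, from 4275 to 6530 nt, the order was different, with 5 of 14 Zbtb genes (35.7%), 9 of 110 Zfp genes (8.18%) and 12.1% of other coding genes. From 2858 to 4274 nt the shares were 50% of 6 Zbtb genes, 10.4% of 106 Zfp genes and 4.72% of other coding genes. From 1692 to 2857 nt they were 20% of 5, 2.90% of 69 and 1.77%. In the shortest class 0 of 15 zinc finger genes were listed, against 1.06% of other coding genes.

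Genes with a KRAB domain had a low share in the table. A KRAB domain was called by a protein sequence pattern, which found 202 of the 485 genes, 201 of them Zfp and 1 Zkscan, and missed divergent KRAB domains such as those of most Zkscan proteins. Of these 202 genes, 10 were listed (4.95%), against 67 of the 283 genes without the pattern (23.7%). In the longest class the shares were 19.4% (6 of 31) and 36.1% (35 of 97). The 10 listed KRAB genes were Zfp871, Zfp777, Zfp568, Zfp282, Zfp369, Zfp12, Zfp398, Zfp316, Zfp619 and Zfp867. Their METTL3-RIP means ran from 0.296 RPKM (Zfp867) to 6.26 RPKM (Zfp871, rank 17 of 79). By finger number the shares lay closer together, as 16.7% of genes with 1 to 4 fingers, 19.8% with 5 to 9, 12.5% with 10 to 14 and 15% with 15 or more were listed. Of the chromosomes with most zinc finger genes, chromosome 7 had 13 of 108 listed, chromosome 17 had 2 of 51, chromosome 13 had 2 of 41 and chromosome 4 had 7 of 40.

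**Figure D4:**
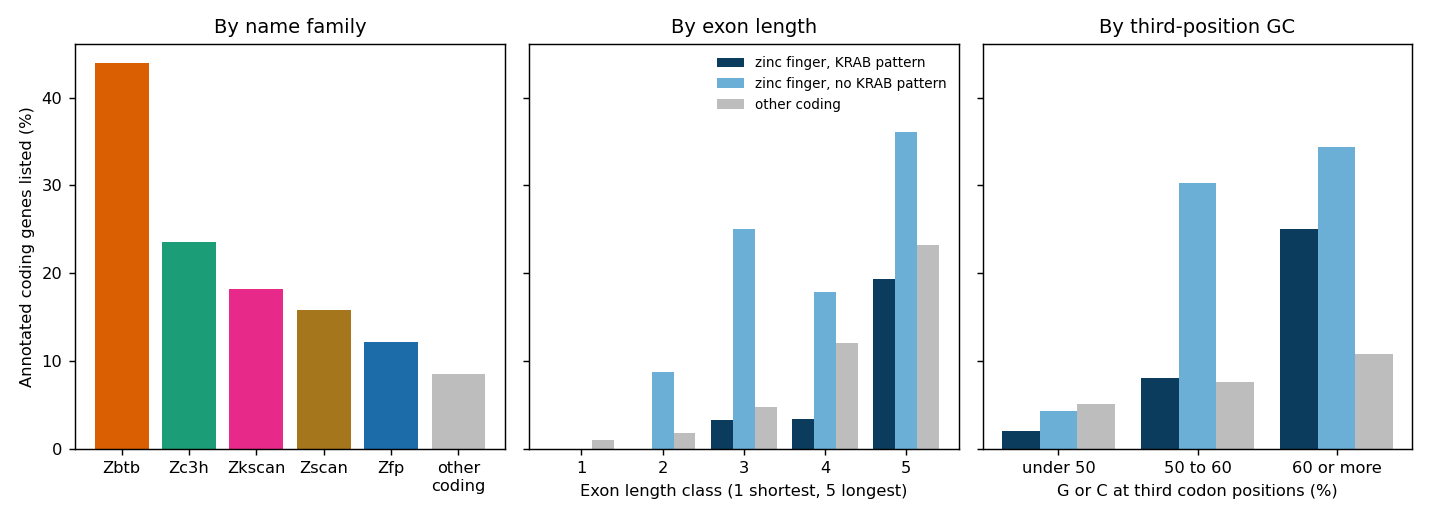
Percentage of annotated coding genes that were in the table, by name family (left; Zfhx, with 2 of 3 genes, is not drawn), by exon length class from 1 (shortest) to 5 (longest, middle), and by G or C at the third codon position (right). Zinc finger genes with the KRAB pattern (dark) stay below those without it (light) in each length class that holds listed genes of either kind and in each GC class, and grey bars are other coding genes.

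Listed and unlisted zinc finger genes also differed in codon composition. The share of codons ending in G or C had a median of 62.9% in the 77 listed coding members and 45.7% in the 408 zinc finger genes outside the table. Other coding genes differed less, with 62.8% in the table and 58.5% outside it. Among zinc finger genes below 50% G or C at the third codon position, 2.90% were listed (7 of 241), rising to 22.3% from 50% to 60% and 33.3% (47 of 141) at 60% or more. The same classes gave 5.13%, 7.56% and 10.8% in other coding genes. The division was present without KRAB genes too, where the shares were 4.35%, 30.3% and 34.4%. Within KRAB genes they were 2.01% (3 of 149), 8.11% (3 of 37) and 25% (4 of 16), which rest on few listed genes. The median exon lengths of the 3 zinc finger classes were 4395, 4521 and 4573 nt, and the part of length in these shares was not tested. The lowest listed member was Zfp292 at 37.8%, and the highest was Zfp46 at 80.4%. Within the listed members the METTL3-RIP level did not follow it (Spearman's rho -0.19 across 77 genes). Whether library preparation recovered fragments of low G or C content less well was not tested.

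**Figure D5:**
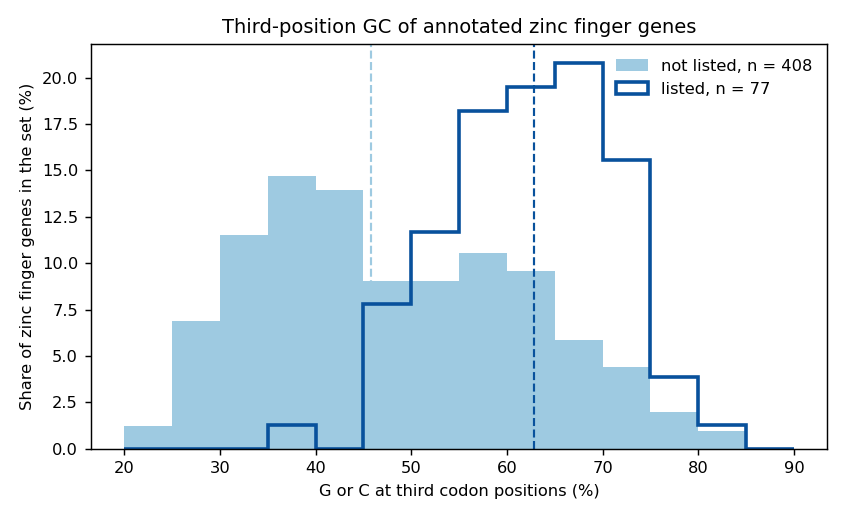
Share of zinc finger genes (vertical, % of the set) by G or C at the third codon position (horizontal, %, bins of 5), for 408 genes outside the table (filled) and 77 in it (outline), with dashed lines at the medians of 45.7% and 62.9%. The outline sits to the right, with 7 listed genes below 50%.

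The linker that joins neighbouring fingers can also be shown in letters. To print it, the run of 18 bases of coding sequence shared by most genes was searched in all 485 genes and again in the listed ones, and both runs lie at the linker. All letters are read from the genome in the direction of the gene, and no base is marked.
most shared by all zinc finger genes: tcatactggagagaaacc
most shared by listed zinc finger genes: acacgggcgagcggccct
The first run has 8 of 18 bases G or C. It occurs in 54 of the 485 genes, for example in Zfp119a at chr17:55865727-55865744 (minus strand, coding exon), with 108 copies of which 99 directly follow a finger. It is in 0 of the 77 listed genes and 54 of the 408 unlisted ones (13.2%), and in 0.352% of all coding genes searched. Of the 54 genes, 43 carry the KRAB pattern, which few listed genes have. The second run has 14 of 18 bases G or C and occurs in 6 of the 485 genes, of which 5 were listed (Zfp236, Zfp282, Zfp316, Zfp46 and Zfp775). All its 10 copies directly follow a finger, as in Zfp46 at chr4:136290365-136290382 (plus strand, coding exon). The first run was chosen over all 485 genes, of which 408 were unlisted, and the second as the one most shared among listed genes. Their distributions are therefore descriptions and no test of codon composition. The runs also start at different points of the linker. Read as its codons, the first holds lysine where the second holds arginine. Their G or C counts therefore do not compare codons of the same residues.

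The letters GGACT, the DNA form of a favoured m6A context, were counted on the gene's strand in 1 annotated transcript per gene. The median density was 0.999 per kilobase in listed members, 0.783 in zinc finger genes outside the table, 1.14 in other listed genes and 1.02 in all coding genes. Within 200 nt on either side of the stop codon, 25 of 77 listed members (32.5%) held GGACT, against 25% of the zinc finger genes outside the table. Among other listed coding genes 40.5% held it, and among all coding genes 35.5%. By both counts the members lay near the genome as a whole and below the other listed genes. Pooled over transcripts, the density was 0.988 per kilobase in listed members and 1.08 in all coding genes. The window is cut where a transcript ends, so windows were not all of equal length. Median 3′ UTRs were 2057 nt in listed members and 725 nt in all coding genes. None of these counts says whether a site is methylated. The sites of the 2 named members with more than 1 match in that window are printed below with GGACT in capitals and 8 bases on each side (GRCm38).
Zbtb17, coding, chr4:141466959-141466979, plus strand: acggatgcGGACTtctaccag
Zbtb17, coding, chr4:141467048-141467068, plus strand: tagggatgGGACTgagggcca
Zbtb17, 3′ UTR, chr4:141467163-141467183, plus strand: gcaccctaGGACTcagaaggt
Zc3h11a, 3′ UTR, chr1:133621467-133621487, minus strand: caaaaactGGACTtagtttca
Zc3h11a, 3′ UTR, chr1:133621370-133621390, minus strand: tgtgtcctGGACTccctgggg
In Zbtb17 the matches start 159 and 70 nt before and 45 nt after the last base of the stop codon. In Zc3h11a they start 64 and 161 nt after it.

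Zinc finger genes share sequence, and reads of close copies can be divided between them. This concerned few members here, as 69 had under 5% of exonic 31-mers elsewhere on the chromosomes and 6 had over 10%. Those 6 were Zc3h3, Zc3h11a (24.2%), Zfp369 (19.3%), Zbtb18 (14.8%), Zfp212 (14.6%) and Zfp235 (11.7%). Repeated 31-mers were not counted for zinc finger genes outside the table, so their part in which genes were listed was not tested. Exons overlapped another gene on the same strand in 13 members and on the opposite strand in 30. Zfhx2 and its antisense gene Zfhx2os are both members and overlap each other, with METTL3-RIP means of 2.82 and 3.47 RPKM. Genes on the opposite strand overlap 17.9% of the exonic sequence of Zfhx2 and 73.1% of that of Zfhx2os, and 63% of Zfhx2os is also overlapped on its own strand (Gm20687), so the Zfhx2os level is the less certain.

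Partners of these proteins were looked at in a list of 32 corepressor genes, of which 12 were in the table. Like 99.9% of genes in the table, all 12 passed the test. The highest were Chd4, the remodelling ATPase of the NuRD complex, with 134, 141 and 124 RPKM in METTL3-RIP against 11.6, 10.5 and 7.5 RPKM in input, and Dnmt1, the maintenance DNA methyltransferase, with 78.2, 74.0 and 65.0 RPKM against 6.12, 4.71 and 3.83 RPKM. Setdb1, its cofactor Atf7ip and Bcor were listed as well, and Trim28, which KRAB domains bind, was not. In a list of 70 zinc finger genes with other names, 21 were in the table and passed the test, as 99.9% of genes in the table did. The 21 were led by Klf13 (17.5 ± 1.77 RPKM, SD, n = 3) and Adnp (16.3 ± 0.544 RPKM). Their median log2 fold change was 1.68, beside 1.61 over the 79 members.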

How the data were processed

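METTL3-RIP and input libraries of mouse splenic NK cells (3 each, grouped by the titles) were analysed from 1 deposited table. Per the labels, polyadenylated RNA was made into TruSeq stranded libraries and sequenced in pairs. The submitters' processing notes name Trimmomatic 0.36, STAR 2.5.3a, bedtools 2.25.0, deepTools 2.4.1, HOMER 4.10 and GRCm38. The counter, the annotation and the use of strand are not given in the sources used here. The deposited per-library values carry no unit and were inferred to be RPKM computed by the authors. The table also holds the authors' log2 fold change and p-value, which were not used.

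Reads were recovered from the RPKM steps with GENCODE M21 exon lengths, which gave whole reads for 64 members. For 15 members another length giving whole reads was used. Values were tested as log2(RPKM + 1) without a filter in limma 3.58.1 (R 4.3.3; lmFit, eBayes with trend, two-sided) over all 2652 genes, threshold 0.05. With 3 against 3 libraries an exact permutation test cannot go below 0.1, so none was used. The procedure was tested on simulated data of 2652 genes, where 88 of 100 genes changed by 1 and 98 of 100 changed by 2 on the log2 scale were recovered, with 12 false calls. All simulated libraries took their levels and spread from METTL3-RIP, and only genes with a mean log2(RPKM + 1) above 1 were changed. The simulation therefore does not cover the low input values or a difference in nearly every gene. Sequence features were computed in Python 3.11.15 and overlaps with bedtools 2.31.1.

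The members, gene lists and markers were chosen with earlier results of these data known. Named were members of the regulator, CCCH and m6A lists, the 5 highest in METTL3-RIP, the 5 largest and 5 smallest log2 fold changes, the 3 largest and 3 smallest ratios of means, the highest of each family and members without input reads. Genes named for codon composition, KRAB or overlap were chosen after their values were seen, and the comparisons of listed with unlisted genes were too. Alternatives were other pseudocounts, a filter, a replicate block, no trend, voom on recovered reads, centring, and leaving out each library.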

Additional observations from a re-analysis of the deposited data

How the results depend on the processing

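All 79 zinc finger genes stayed past the threshold with pseudocounts of 0.1 and 5, without a trend, with voom on recovered reads and without any 1 library, while 65 were left, all past it, by a filter at a mean of 0.5 RPKM, and 66 passed after centring (29 higher, 37 lower). Non-overlapping members numbered 79 without any 1 library, and listed genes past the threshold numbered 2629 to 2644. By the study's methods, input was a part of the lysate used for precipitation, but which libraries match is not stated. Replicate numbers are shared by METTL3-RIP and input titles. Deviations from the group means of same-numbered libraries correlated at only -0.019, -0.019 and 0.078, which cannot exclude pairs. The main fit did not take the numbers as pairs. With the replicate block 79 members and 2643 listed genes passed, and the median log2 fold change over the members was 1.61. That median, 1.61 as reported, was 3.13 with a pseudocount of 0.1, 0.56 with 5, 1.83 with the filter and 3.75 with voom (all listed genes 3.90), since a smaller pseudocount or fewer low genes leaves more of the ratio. It turned to -0.15 when each library was centred on the median of the listed genes, a setting that removes the difference common to the table by construction. Leaving out 1 library gave 1.59 to 1.68. Of 411 alternative values over 35 results, 405 had the same direction and stayed on the same side of the threshold, and the other 6 are those of this median, among them the one without METTL3-RIP replicate 1 (1.68). These values do not include centring for single genes, under which 10 of the 31 named genes turned lower and 21 stayed higher. Depth limits the input side, where 32 members had under 50 reads in all.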

Other observations

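Some members outside the naming rule, chosen after their values were seen, extend the range. Zfp292, the listed gene with the lowest G or C share at the third codon position, was the 6th highest member, with 9.96, 10.6 and 11.6 RPKM in METTL3-RIP against 0.763, 0.939 and 0.905 RPKM in input. Zfp646, with 27 fingers by the sequence pattern, had 10.1, 10.9 and 10.05 RPKM against 1.0, 0.887 and 0.601 RPKM. Both lay near the median ratio of the members, at 12.3 and 12.5.

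Zbtb40 and Zbtb34 had higher ratios of means than any member with 50 input reads, 41.4 and 49.3, but on 23 and 5 input reads. Zbtb40 measured 1.85, 2.18 and 1.72 RPKM against 0.0491, 0.0642 and 0.0254 RPKM, and the groups were far apart. Zbtb34 measured 0.451, 0.866 and 1.14 RPKM and had 0 reads in input replicate 1. The transcribed pseudogene Zfp783 measured 0.544, 0.395 and 0.458 RPKM on 4 input reads, and its exons overlap those of the coding member Zfp956 on the same strand, so part of its reads may be counted for either.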
